A study of Mus musculus with 4 samples.

Results

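The 10 genes described here encode chaperones, folding enzymes and a degradation factor of the endoplasmic reticulum (ER) that are known as targets of the transcription factor ATF6 or of the wider ER stress response. They were Hspa5, Hsp90b1, Hyou1, Dnajb11, Sdf2l1, Manf, Pdia4, Creld2, Fkbp11 and Derl3, picked by symbol from the 32285 genes of the count matrices, and each symbol matched a single gene identifier. Secretory cells fold their cargo in the ER, and beta cells fold proinsulin there. When unfolded protein builds up, Hspa5 is drawn away from the sensors Atf6, Ern1 (IRE1) and Eif2ak3 (PERK). Cleaved ATF6 then enters the nucleus and binds ER stress response elements in the promoters of chaperone genes, while the PERK arm acts through Atf4 and Ddit3 (CHOP).

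The cells came from pancreatic islets of male mice, measured by droplet-based 3′ single-cell RNA sequencing with unique molecular identifiers (UMIs). WT mice carried the wild-type Pax4 gene, and HH mice were homozygous for a knock-in of the mouse counterpart of the human PAX4 R192H variant, present in every cell of the animal and throughout life. Mice on standard chow (SCD) were 12 weeks old, and mice on high-fat diet (HFD) were 16 weeks old after 4 weeks on that diet. The islets of several mice were pooled into each of the 4 libraries, 1 for each genotype and diet. With 1 library per group, genotypes could not be tested within a diet nor diets within a genotype, an effect of genotype over both diets was not tested, and the intervals given for such ratios cover counting error only. A group cannot be told apart from its library, nor diet from age.

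Cells were grouped by the hormone that dominated their UMIs, a grouping that used none of the 10 genes. The WT SCD, HH SCD, WT HFD and HH HFD libraries held 1975, 1950, 1098 and 2790 insulin-dominant cells, and glucagon-dominant, somatostatin-dominant and Ppy-dominant cells numbered 273 to 449, 154 to 322 and 68 to 187 per library. Markers of insulin- and somatostatin-dominant cells went with these names, with Mafa at 194 to 395 CPM (UMIs of the gene per 1000000 UMIs of the class) in insulin-dominant cells and at most 11.3 CPM in the other 3 classes, and Hhex at 252 to 310 CPM in somatostatin-dominant cells. WT HFD stood apart in that 38.3% of its barcodes passed the cell filter, against 61.6% to 67.8% in the other 3 libraries, so calls on the 10 genes that a looser filter ends are given with both values. Median depth of insulin-dominant cells was 24128.5 to 29705.5 UMIs, and pairs of libraries shared 6 to 11 cell barcodes. Pax4 itself had 0 UMIs in all 4 hormone classes, which limits its level in insulin-dominant cells to 0.0433 to 0.0916 CPM, and a point variant would in any case leave no mark on these counts. The plasma cell markers Jchain and Mzb1 were at or below 0.61 CPM and each acinar marker at or below 0.49 CPM in insulin-dominant cells of every library. Several of the 10 transcripts are known to be abundant in those 2 cell types. Xbp1, also on the plasma cell list, stood at 131 to 181 CPM in insulin-dominant cells.

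The promoters of the 10 genes are shown first, because ATF6 is known to bind ER stress response elements. RefSeq windows from 250 bases before to 50 bases after the start site (GRCm38.p6) were on hand for 8 of the 10 genes, all but Manf and Hyou1. They were searched on both strands for ERSE, spelled CCAAT, 9 bases of any kind, then CCACG, and for ERSE-II, spelled ATTGG, 1 base of any kind, then CCACG. The genes lie on chromosomes 2, 6, 9, 10, 15 and 16. The 5 windows with a match follow, 5′ to 3′ on the strand of the gene, with both ends of each match in capitals (on the opposite strand an ERSE reads CGTGG, 9 bases, ATTGG).

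Hspa5, chr2:34771840-34772139, plus strand: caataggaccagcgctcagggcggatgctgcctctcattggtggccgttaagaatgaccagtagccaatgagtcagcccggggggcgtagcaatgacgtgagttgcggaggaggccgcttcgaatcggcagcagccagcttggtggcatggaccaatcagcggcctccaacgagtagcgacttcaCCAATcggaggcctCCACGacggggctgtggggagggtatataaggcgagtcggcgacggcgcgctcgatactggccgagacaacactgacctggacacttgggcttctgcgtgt
Hsp90b1, chr10:86705395-86705694, minus strand: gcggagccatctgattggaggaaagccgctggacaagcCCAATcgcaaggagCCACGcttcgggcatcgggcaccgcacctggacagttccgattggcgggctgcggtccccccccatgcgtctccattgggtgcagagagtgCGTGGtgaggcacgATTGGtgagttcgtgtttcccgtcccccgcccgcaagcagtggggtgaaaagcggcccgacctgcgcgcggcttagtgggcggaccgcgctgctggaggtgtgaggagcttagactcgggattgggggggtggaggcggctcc
Creld2, chr15:88819396-88819695, plus strand: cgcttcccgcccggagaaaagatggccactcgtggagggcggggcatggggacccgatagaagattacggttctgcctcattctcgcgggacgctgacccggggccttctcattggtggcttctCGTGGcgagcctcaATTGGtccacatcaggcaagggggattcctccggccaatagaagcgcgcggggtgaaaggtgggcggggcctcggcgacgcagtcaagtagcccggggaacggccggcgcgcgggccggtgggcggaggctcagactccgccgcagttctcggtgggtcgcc
Derl3, chr10:75893148-75893447, plus strand: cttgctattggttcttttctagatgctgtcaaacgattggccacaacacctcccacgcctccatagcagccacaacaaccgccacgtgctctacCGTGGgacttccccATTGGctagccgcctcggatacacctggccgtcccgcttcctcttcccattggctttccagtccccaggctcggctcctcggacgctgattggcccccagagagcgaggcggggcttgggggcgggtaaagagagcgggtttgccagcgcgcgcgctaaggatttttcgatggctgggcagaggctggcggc
Dnajb11, chr16:22857595-22857894, plus strand: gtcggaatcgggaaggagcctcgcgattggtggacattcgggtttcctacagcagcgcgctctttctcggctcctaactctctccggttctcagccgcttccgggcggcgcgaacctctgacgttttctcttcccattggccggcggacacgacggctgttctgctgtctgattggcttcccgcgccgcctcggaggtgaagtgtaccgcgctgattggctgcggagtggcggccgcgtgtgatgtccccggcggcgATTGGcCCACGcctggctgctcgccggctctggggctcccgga

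ERSE was found in the windows of Hspa5, Hsp90b1, Creld2 and Derl3, which is 4 of 8 genes or 50%. Hsp90b1 carried 2 matches, the farther of them starting 212 bases before the start site. The match of Hspa5 lay nearest to its start site, from 65 to 47 bases before it. Dnajb11 had no ERSE but held an ERSE-II just after its start site. Sdf2l1, Pdia4 and Fkbp11 (2 windows for the last) had neither spelling. Over all windows of this length, 39 of 32851 (0.119%) held ERSE and 12 (0.0365%) held ERSE-II. Of 28 further ER folding and degradation genes with a window, 6 (21.4%) held ERSE, and none did among the 7 stress sensors and transcription factors, the 15 ATF4 and CHOP genes, the 8 cytosolic heat shock genes and the 11 dissociation response genes with windows. These matches describe letters in a window, not binding.

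All 10 genes were higher in insulin-dominant cells than in each of the other hormone classes after TMM scaling, while Hsp90b1 and Pdia4 were not higher than in somatostatin-dominant cells in plain CPM. Derl3, a factor of ER-associated degradation, differed most. It stood at 27.9, 33.0, 21.3 and 56.4 CPM in insulin-dominant cells of WT SCD, HH SCD, WT HFD and HH HFD, against 0.67 to 2.53 CPM in glucagon-dominant cells, 0.31 to 2.06 CPM in somatostatin-dominant cells and 0 to 4.08 CPM in Ppy-dominant cells. The class with 0 UMIs, Ppy-dominant cells of WT SCD, allows a level of up to 1.51 CPM if 3 UMIs are taken as the limit of a count of 0. Fkbp11, a prolyl isomerase of the ER, was at 132, 168, 189 and 361 CPM in insulin-dominant cells and at 20.5 to 41.6 CPM in glucagon-dominant cells, but at 64.7 to 105 CPM in Ppy-dominant cells. Neither Fkbp11 nor Derl3 overlapped between insulin-dominant cells and either of these classes over the 4 libraries. The share of all genes without such overlap was not counted. Sdf2l1, which works with Hspa5 and Dnajb11, was at 226, 256, 253 and 414 CPM in insulin-dominant cells and at 56.4 to 69.9 CPM in glucagon-dominant cells.

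In a paired model over the 16 sums of 4 classes and 4 libraries (edgeR quasi-likelihood with TMM scaling, library as a block), Derl3 was higher in insulin-dominant than in glucagon-dominant cells by 5.02 on the log2 scale (SE 0.20, adjusted p 3.6e-15), Fkbp11 by 3.45 (SE 0.18, adjusted p 4.0e-13) and Sdf2l1 by 2.78 (SE 0.12, adjusted p 3.3e-14). Creld2, Hyou1 and Dnajb11 followed with 1.91, 1.88 and 1.82, and Manf, Hspa5, Pdia4 and Hsp90b1 with 1.46, 1.38, 1.0 and 0.96. The differences ran from 5.86 for Derl3 to 0.81 for Hsp90b1 against somatostatin-dominant cells, and from 4.59 for Derl3 to 1.01 for Hsp90b1 against Ppy-dominant cells. Fkbp11 was at 1.48 in the last comparison, below Sdf2l1, Hyou1, Creld2 and Dnajb11. The largest adjusted p of the 30 comparisons was 2.3e-07, for Fkbp11 against Ppy-dominant cells. The p-values measure only the spread between these 4 libraries. The 10 of 10 must be read against a background in which 31.6% of 11635 genes were higher and 29.6% lower in insulin-dominant than in glucagon-dominant cells. Those shares were 30.7% and 29.6% against somatostatin-dominant and 28.0% and 24.7% against Ppy-dominant cells.

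Insulin made up 54.4% to 55.8% of all UMIs in insulin-dominant cells, and the scaling therefore matters here. In CPM of all UMIs, without TMM, 8 of the 10 genes were still higher than in somatostatin-dominant cells. Hsp90b1, the ER member of the Hsp90 family, was then lower by 0.16 on the log2 scale, and Pdia4 differed by −0.03. Against glucagon-dominant cells the smallest difference without TMM was 0.36, for Hsp90b1. On that scale Hsp90b1 read 996, 983, 832 and 1029 CPM in insulin-dominant cells of WT SCD, HH SCD, WT HFD and HH HFD, and 1108, 1078, 999 and 1106 CPM in somatostatin-dominant cells.

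Glucagon-dominant and somatostatin-dominant cells differed in 4 of the 10 genes. Fkbp11 was lower in glucagon-dominant cells by 1.0 on the log2 scale (SE 0.20, adjusted p 0.00027), with 62.2 to 89.6 CPM in somatostatin-dominant cells. Manf, a secreted ER protein that binds Hspa5, was higher by 0.55 (adjusted p 3.9e-05), Hyou1, an exchange factor for Hspa5, by 0.50 (adjusted p 0.00016), and Hspa5 by 0.33 (adjusted p 0.048). Without TMM none of the 3 was higher, and Hspa5 differed by −0.055. The Hspa5 call was also lost without WT SCD (edgeR adjusted p 0.0996), without HH SCD (0.0831), without HH HFD (0.0734) and with DESeq2 (0.0824). Between these classes 22.0% of genes were higher and 22.1% lower.

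Free RNA from broken insulin-dominant cells could have reached the other droplets, so its reach was measured. Insulin in glucagon-, somatostatin- and Ppy-dominant cells stood at 1.19% to 3.07% of its level in insulin-dominant cells of the same library. Carried along with insulin at that share, the 9 genes other than Derl3 would have had 1.48% to 16.1% of the level measured in those classes, with a median of 4.89%. Derl3 in those classes, at 0 to 12 UMIs per sum, compares with 0.25 to 1.37 CPM that free RNA alone would bring. Its counting interval lay above that level in 5 of the 12 sums, among them Ppy-dominant cells of HH HFD at 4.08 CPM against 0.94 CPM, and included it in the others. The exact size of the Derl3 differences between classes, taken against so few UMIs, is therefore uncertain.

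**Figure D1:**
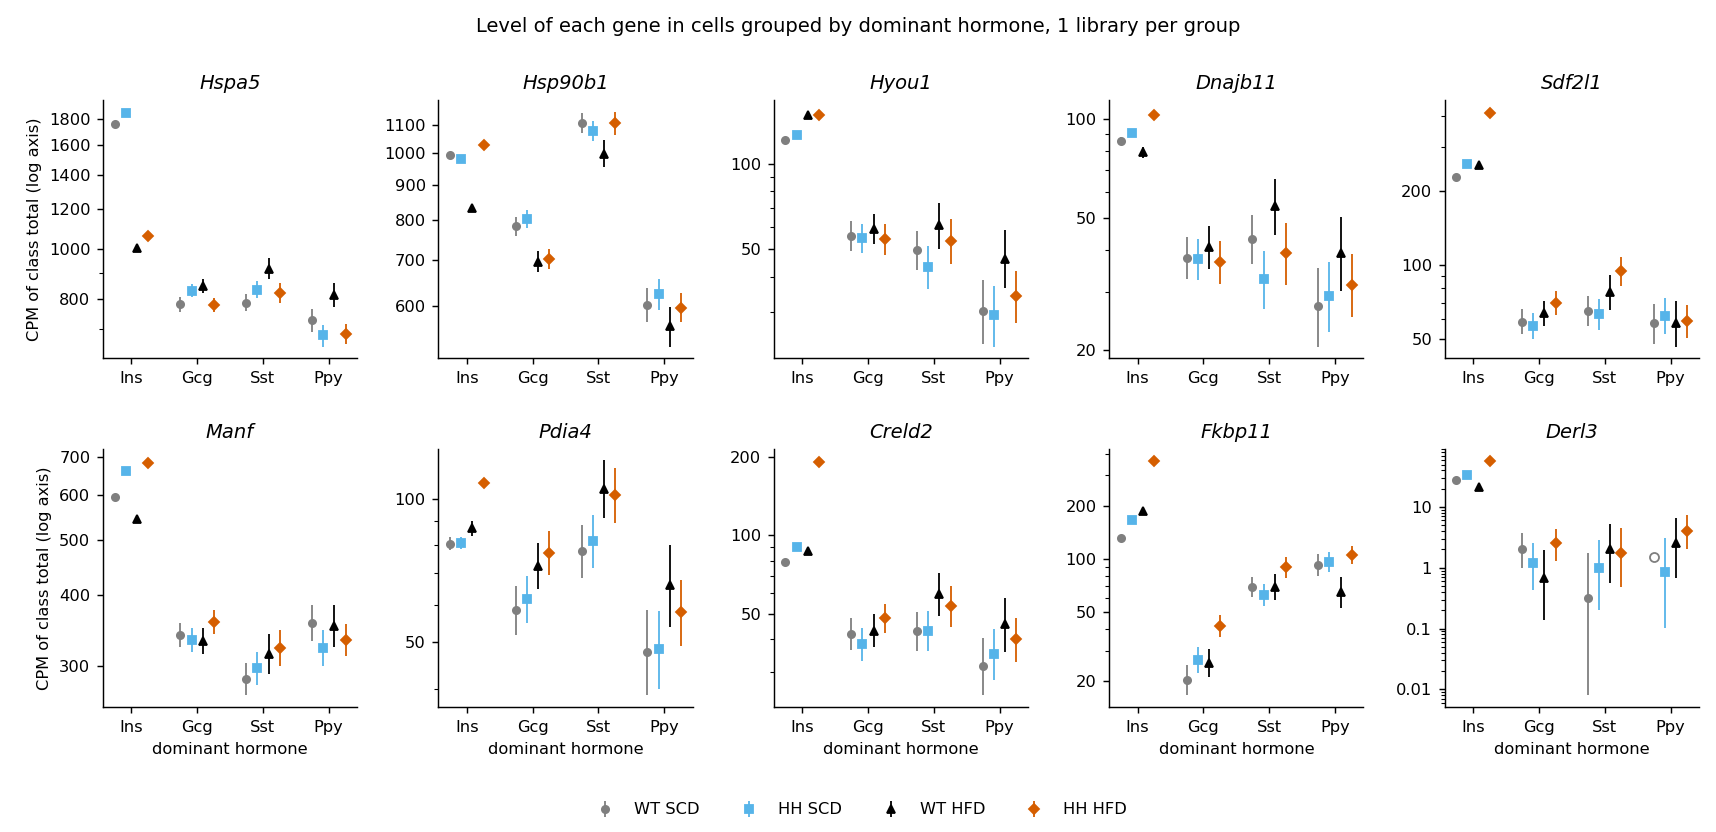
Level of each of the 10 genes (CPM of all UMIs, log axis) in the 4 hormone classes of each library, with exact 95% counting intervals and 1 point per library. The open circle marks the level of 3 UMIs for Derl3 where 0 were found. Derl3 and Sdf2l1 sit well above the other classes in insulin-dominant cells, Fkbp11 comes nearest to them in Ppy-dominant cells, and Hsp90b1 overlaps with somatostatin-dominant cells on this scale.

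On chow, the genotypes lay close together in insulin-dominant cells. The median log2 ratio of HH over WT across the 10 genes was 0.12, against −0.08 over the 6063 genes that averaged at least 10 CPM. A log2 ratio of 0.322 either way was the threshold for counting a gene as higher or lower here and in all later comparisons of libraries. Fkbp11 was the 1 gene of the 10 past it, with 132 CPM in WT and 168 CPM in HH and a log2 ratio of 0.34 (95% counting interval 0.29 to 0.38). Of all genes, 0.346% were past it upward and 2.29% downward. Derl3 was next with 27.9 and 33.0 CPM (0.24, interval 0.14 to 0.35). Creld2, a cysteine-rich ER protein that is secreted under stress, read 79.0 and 89.7 CPM (0.18), and Sdf2l1 0.18 as well. Hspa5, the master chaperone BiP, read 1762 and 1849 CPM (0.07, interval 0.06 to 0.08). Pdia4, a protein disulfide isomerase, was at 80.5 and 80.8 CPM, and Hsp90b1 at 996 and 983 CPM (−0.02, interval −0.04 to −0.00). The sign of Hsp90b1 rests on the scaling, since it was 0.04 once hormone, Iapp and mitochondrial UMIs were taken out of the totals.

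On high-fat diet the same comparison was wider and uneven. In HH HFD, 6 of the 10 genes were past the threshold upward against WT HFD and none downward, where 3.24% of 5901 genes were higher and 13.7% lower. The median over the 10 genes was 0.35 and over all genes −0.13. Transcripts of other islet cells moved in the same sums, with Gcg at 271 CPM in WT HFD and 580 CPM in HH HFD, Sst at 70.6 and 169 CPM, Ppy at 247 and 665 CPM and Gc at 58.0 and 148 CPM. Hhex, a transcription factor of somatostatin cells, stood at 0.21 CPM in WT HFD and 0.40 CPM in HH HFD. Their part in the result was not tested. With a dominance of 5 times in the class rule the count stayed at 6 and the median at 0.35. That rule kept 1096 of 1098 insulin-dominant cells in WT HFD and 2784 of 2790 in HH HFD, so it could not address these transcripts. Derl3 read 21.3 CPM in WT HFD and 56.4 CPM in HH HFD, a log2 ratio of 1.41 (interval 1.29 to 1.53). Creld2 read 87.1 and 190 CPM (1.12, interval 1.07 to 1.18). Fkbp11 read 189 and 361 CPM (0.94, interval 0.90 to 0.98), and Sdf2l1 253 and 414 CPM (0.71, interval 0.67 to 0.74). In plain CPM all of the 10 genes except Hspa5 read highest in HH HFD among the 4 libraries, Manf and Hyou1 by small margins. The share of all genes that read highest in HH HFD was not counted. Dnajb11, a J-domain partner of Hspa5, read 79.4 and 103 CPM (0.38), and Manf 544 and 684 CPM (0.33). Pdia4 and Hsp90b1 were just under the threshold, at 0.32 and 0.31.

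Hspa5 and Hyou1 differed little between the genotypes. Hspa5 read 1007 CPM in WT HFD and 1062 CPM in HH HFD (0.08, interval 0.06 to 0.10), and Hyou1 149 and 150 CPM (0.01, interval −0.04 to 0.06). With the looser cell filter Hspa5 stood at −0.03 and the median of the 10 genes at 0.26, with 4 genes past the threshold (Dnajb11 then at 0.29 and Manf at 0.24), while Derl3, Creld2, Fkbp11 and Sdf2l1 kept 1.13, 0.96, 0.82 and 0.55. With hormone, Iapp and mitochondrial UMIs left out of the totals, 8 genes passed the threshold. Across all settings tried, Derl3 ranged from 1.13 to 1.66 and Creld2 from 0.96 to 1.26.

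**Figure D2:**
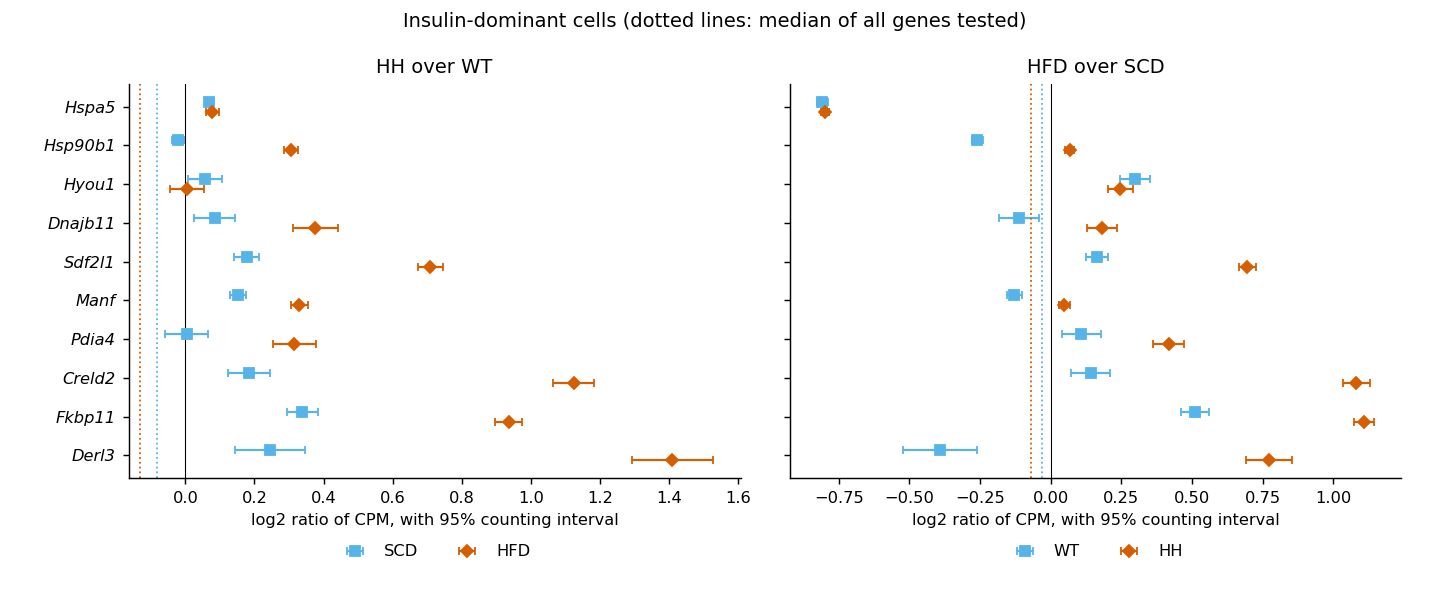
Log2 ratio of HH over WT for each gene in insulin-dominant cells on chow and on high-fat diet, and of HFD over SCD in each genotype, with 95% counting intervals; 1 library per group. Derl3, Creld2, Fkbp11 and Sdf2l1 lie at 0.71 to 1.41 for HH over WT on high-fat diet, whereas Hspa5 and Hyou1 lie at 0.08 and 0.01.

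Set against chow, Hspa5 was lower on high-fat diet in both genotypes. It read 1762 CPM in WT SCD and 1007 CPM in WT HFD, a log2 ratio of −0.81 (interval −0.83 to −0.79), and 1849 CPM in HH SCD and 1062 CPM in HH HFD, a ratio of −0.80 (interval −0.81 to −0.79). This put Hspa5 below all but 2.14% of genes in WT and all but 3.36% in HH. The HH libraries showed Fkbp11 at 168 and 361 CPM (1.11), Creld2 at 89.7 and 190 CPM (1.08), Derl3 at 33.0 and 56.4 CPM (0.77), Sdf2l1 at 256 and 414 CPM (0.70) and Pdia4 at 80.8 and 108 CPM (0.42). In WT, only Fkbp11 of the 10 passed the threshold upward, with 132 and 189 CPM (0.51), and Hspa5 and Derl3 (−0.39) passed it downward. The Derl3 call ended with the looser cell filter (−0.13), which put the median in WT at 0.099, and without bounds on genes per cell (−0.31). The counts were thus 1 higher and 2 lower in WT, against 6.57% and 13.0% of 6175 genes, and 5 higher and 1 lower in HH, against 7.30% and 17.9% of 5809 genes. The medians over the 10 genes were −0.00 in WT and 0.33 in HH. Hyou1 was alike in both genotypes, at 0.30 and 0.25. Other transcripts moved between the HH SCD and HH HFD sums, with Sst at 77.0 and 169 CPM and Ppy at 438 and 665 CPM. Gc read 30.9 and 148 CPM, Gcg 558 and 580 CPM and Mafa 359 and 194 CPM. Their part in the result was not tested.

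A drop in Hspa5 of that size was not seen in the other hormone classes, though it read lower in glucagon-dominant HH cells (interval −0.16 to −0.03). Hspa5 read 781, 831, 847 and 779 CPM in glucagon-dominant cells of WT SCD, HH SCD, WT HFD and HH HFD, 787, 834, 917 and 822 CPM in somatostatin-dominant cells and 728, 679, 815 and 683 CPM in Ppy-dominant cells. For HFD over SCD these gave log2 ratios of 0.12, 0.22 and 0.16 in WT and of −0.09, −0.02 and 0.01 in HH. The difference between classes in this ratio was not tested. Immediate early and other dissociation response genes moved along with the diet in the same cells. Their median for HFD over SCD in insulin-dominant cells was −0.44 in WT (7 of 12 lower, 1 higher) and −1.15 in HH (10 of 12 lower), but 0.97 and 0.96 in glucagon-dominant cells. Their part in the result was not tested.

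Fkbp11 was also read in the other hormone classes. On high-fat diet its log2 ratio of HH over WT was 0.70 in glucagon-dominant cells (25.6 and 41.6 CPM, interval 0.36 to 1.04, but 0.22 with thinning), 0.37 in somatostatin-dominant cells (69.4 and 89.6 CPM, interval 0.05 to 0.70, but 0.25 with the looser filter) and 0.70 in Ppy-dominant cells (64.7 and 105 CPM, interval 0.37 to 1.04). If free RNA had been carried with insulin it would have made up at most 16.1% of these levels. Sst moved in the same sums, with 89.7 CPM in WT HFD and 416 CPM in HH HFD in glucagon-dominant cells. In Ppy-dominant cells it read 71.7 and 1551 CPM. Its part in the result was not tested. Creld2 stood at 0.16 in glucagon-dominant cells (interval −0.13 to 0.44) and at −0.16 in somatostatin-dominant cells (interval −0.54 to 0.23). Derl3 was too low in these classes to compare.

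Of the 9 genes above 10 CPM in glucagon-dominant cells, Fkbp11 alone passed the threshold for HH over WT, on chow (0.37, interval −0.01 to 0.76) as on high-fat diet, and none was lower by as much. The background was 4.51% higher and 6.62% lower of 7256 genes on chow, and 6.17% and 7.43% of 7224 genes on high-fat diet, so that 1 gene of 9 is little above the share of all genes. In somatostatin-dominant cells, Dnajb11 was lower in HH on chow (−0.40) and on high-fat diet (−0.47), and Fkbp11 was the only gene of the 9 that was higher, on high-fat diet. In that class the background was 7.04% and 10.5% of 8173 genes on chow and 9.85% and 14.7% of 8433 genes on high-fat diet. The Fkbp11 call in somatostatin-dominant cells was lost with the looser filter (0.25), without bounds on genes per cell, with equal weight for each cell and with a stricter class rule. There too 1 of 9 was near the background. Medians over the 9 genes lay between −0.04 and 0.09 in these 4 comparisons, near the −0.03 to −0.00 over all genes.

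Other gene groups of the stress response were read in the same comparison. In insulin-dominant cells on high-fat diet, 6 of 32 further ER folding and degradation genes were higher in HH and 1 was lower, with a median of 0.11. Dnajc3, a co-chaperone also known as P58IPK, read 341 and 495 CPM (0.54) and Pdia6 445 and 586 CPM (0.40), while the ubiquitin ligase Syvn1 (−0.34) and Txndc11 (−0.29) were lowest. Of 7 sensors and transcription factors none passed the threshold either way (median −0.14). Atf6 itself read 40.9 and 34.7 CPM (−0.23) and Xbp1 151 and 131 CPM (−0.20), with Mbtps1, the protease that cleaves ATF6, at −0.06 and Ern1 at −0.07. Of 12 ATF4 and CHOP genes 2 were higher and 5 lower (median −0.28). Atf3 read 32.3 and 19.0 CPM (−0.77) and Ddit3 108 and 69.7 CPM (−0.63), against 0.35 for Phgdh and 0.34 for Nupr1.

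Genes of the handling response moved in the same comparison. All 12 dissociation response genes were lower in HH HFD (median −0.73), from Nr4a1 at −1.17 and Fosb at −0.89 to Dusp1 and Btg2 at −0.50. Of 11 cytosolic heat shock genes 5 were lower and none higher (median −0.15), with Hspa1a at 193 and 57.1 CPM and Hspa1b at 80.7 and 23.9 CPM (both −1.76), Hspe1 at −0.05 and Hsp90aa1 at 0.00. The mitochondrial share was 5.0% of UMIs in WT HFD and 4.06% in HH HFD. Their part in the result was not tested.

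On chow these lists held few genes past the threshold in insulin-dominant cells. None of 31 further ER genes passed it (median 0.06), from Ppib (0.21) and Hspa13 (0.19) down to Canx (−0.14) and Ero1l (−0.16). None of 7 sensors did, from Eif2ak3 (0.08) and Creb3l2 (0.04) to Mbtps1 (−0.17) and Ern1 (−0.20). Of the ATF4 and CHOP genes, Chac1 was lower (−0.57), Atf4 stood at −0.19, Atf3 at 0.10 and Phgdh at 0.19. The 2 cytosolic heat shock genes that were lower were Hspa1b (−0.60) and Hspa1a (−0.32), while Hspa8 and Hspe1 stood at −0.08. Of 12 dissociation response genes, Dusp1 (0.45) and Fos (0.39) were higher and Nr4a1 (−0.55) was lower, with Junb at −0.22.

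Within each library the 10 genes varied together from cell to cell. Insulin-dominant cells were thinned to 3000 UMIs, ranked on their Hspa5 UMIs and split into 5 groups of equal size. From the bottom to the top group, Creld2 went from 54.4 to 115 CPM in WT SCD, 62.0 to 128 CPM in HH SCD, 58.8 to 127 CPM in WT HFD and 130 to 277 CPM in HH HFD. Creld2 thus spanned about the same ratio in every library, at log2 values of 1.05 to 1.11. Derl3 spanned 0.88 to 1.17, Sdf2l1 0.69 to 1.01 and Fkbp11 0.50 to 1.02. Manf, Dnajb11, Pdia4, Hyou1 and Hsp90b1 had medians of 0.68, 0.67, 0.65, 0.62 and 0.60 over the 4 libraries. All 9 genes were past the threshold of 0.322 in all 4 libraries, as were 2.12% of 5432 genes upward and 0.295% downward. Ranking on Hsp90b1 gave 8 of 9, against 0.718% of 5429 genes upward and 0.129% downward.

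Depth moved with this ranking too. The median UMI count per cell went from 24181 to 28075 between the bottom and top groups in WT SCD and from 23342.5 to 24923.5 in HH HFD, and the insulin share from 53.9% to 54.4% and from 56.3% to 53.0%. Their part in the result was not tested. Among genes outside the 10, Pappa2 (median 1.34), Rbm15b (1.0), C2cd4a (1.0), Pdyn (0.95) and Tubb3 (0.88) had the highest ratios. Of 31 further ER genes 16 passed in all 4 libraries (median 0.38), compared with none of 7 sensors, none of 10 cytosolic heat shock genes, 1 of 12 dissociation response genes and 1 of 12 ATF4 and CHOP genes, of which 2 more passed downward.

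**Figure D3:**
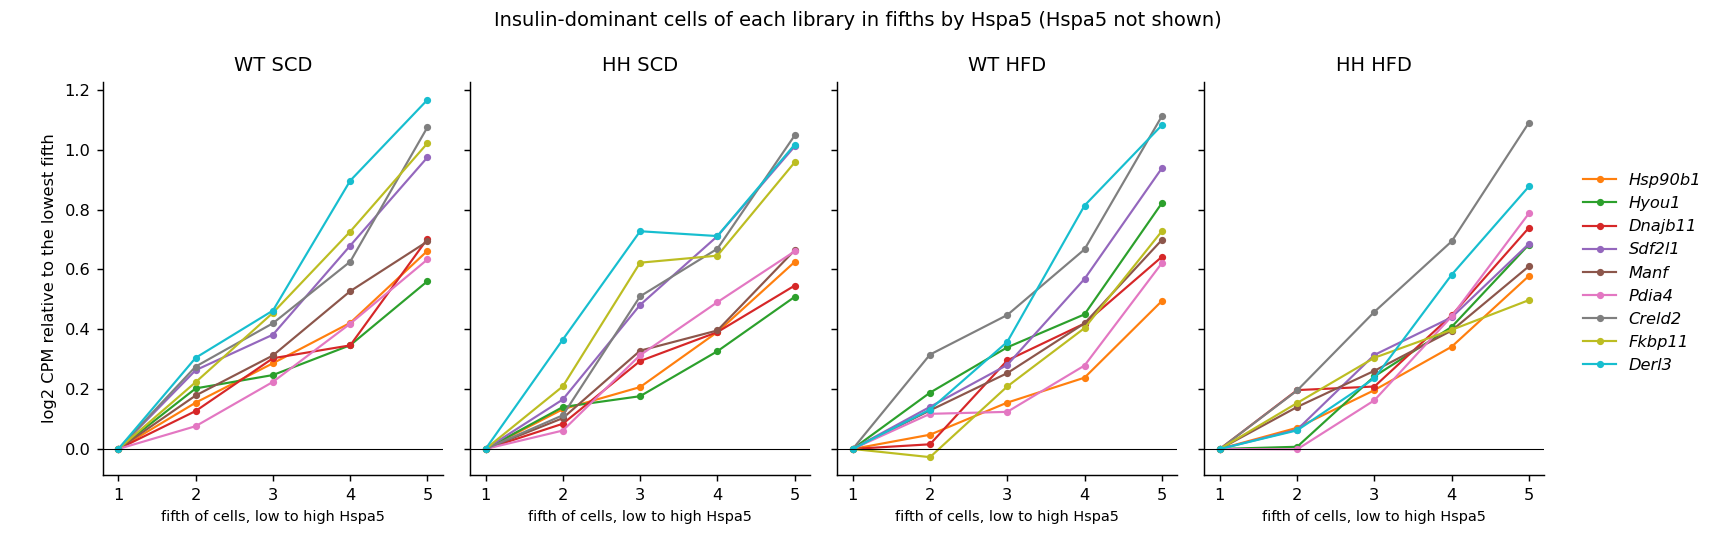
Log2 CPM of the other 9 genes relative to the lowest group, in insulin-dominant cells split into 5 equal groups by their Hspa5 UMIs, with 1 panel per library and 1 line per gene. All 9 genes are higher in the top group than in the bottom group in each of the 4 libraries.

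Insulin content gave a further order of the same cells. Cells were ranked on Ins1 and Ins2 UMIs after thinning, and levels were taken as CPM of the UMIs other than insulin, so that the ranking genes did not dilute the rest. In the chow libraries, Derl3 went from 37.0 to 85.8 CPM in WT and from 45.2 to 105 CPM in HH between the bottom and top groups, log2 ratios of 1.21 and 1.22. Fkbp11 (1.10 and 0.82), Sdf2l1 (0.95 and 0.80), Manf (0.78 and 0.64) and Creld2 (0.82 and 0.52) were likewise higher in insulin-rich cells. So was Dnajb11, with 151 and 217 CPM in WT SCD and 170 and 232 CPM in HH SCD. The share of all genes past the threshold in the chow libraries alone was not counted. On high-fat diet Derl3 stood at 0.37 in WT, past the threshold, and at 0.06 in HH, Fkbp11 at 0.02 and −0.22, Sdf2l1 at 0.19 and −0.09, and Manf at 0.10 and 0.06. Creld2 read 211 and 182 CPM in WT HFD (−0.21, short of the threshold) and 465 and 348 CPM in HH HFD (−0.42, past it). Hspa5 stood at 0.34 and 0.21 on chow and at −0.30 and −0.22 on high-fat diet. None of the 10 genes passed the threshold in all 4 libraries, against 0.618% of 8089 genes higher and 0.878% lower. The median UMI count went from 22525 to 31314 in WT SCD, from 22292.5 to 28925 in HH SCD, from 26875 to 31419 in WT HFD and from 23632.5 to 24919 in HH HFD. Their part in the result was not tested.

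**Figure D4:**
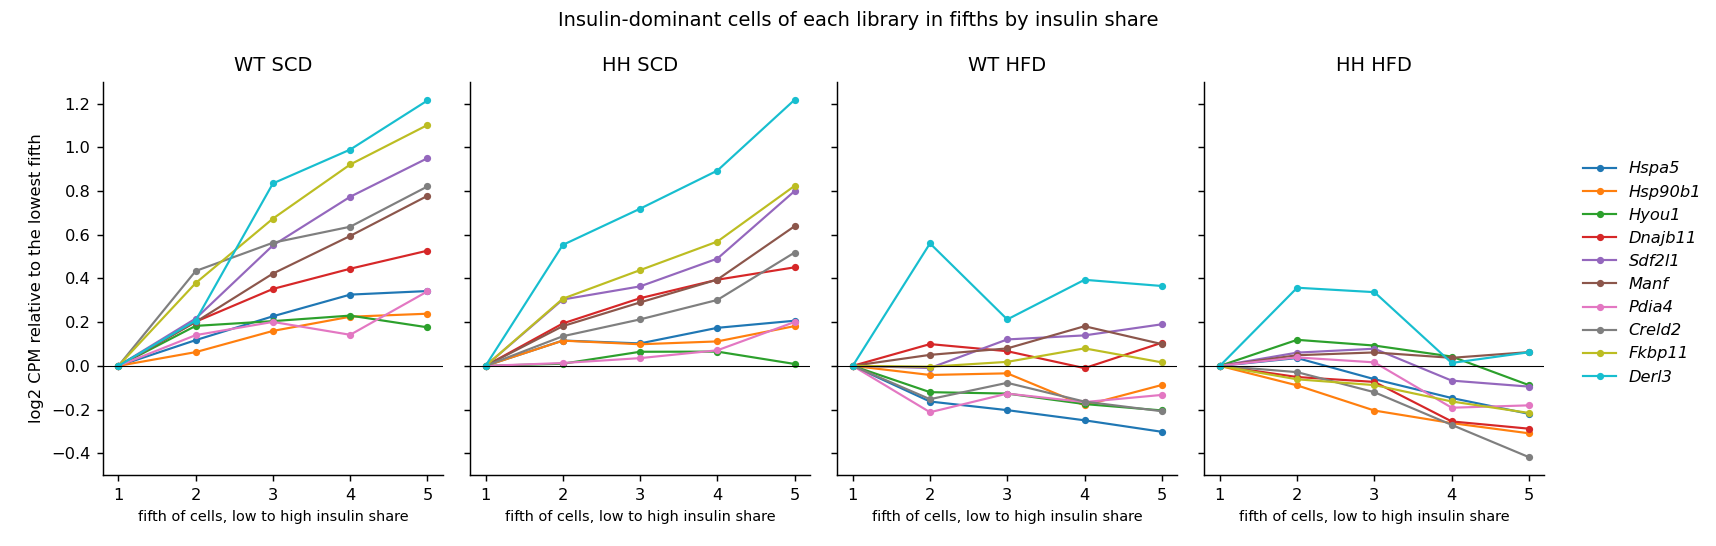
Log2 level of the 10 genes (CPM of UMIs other than insulin) relative to the lowest group, in insulin-dominant cells split into 5 equal groups by insulin UMIs, with 1 panel per library and 1 line per gene. Derl3, Fkbp11, Sdf2l1 and Manf climb with insulin in both chow libraries and end between −0.22 and 0.06 in HH HFD.

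Detection per cell was counted as well. After thinning to 3000 UMIs, Creld2 was found in 18.9%, 20.5%, 21.2% and 35% of insulin-dominant cells of WT SCD, HH SCD, WT HFD and HH HFD, Fkbp11 in 28.7%, 36.3%, 39.2% and 58.3%, and Derl3 in 6.73%, 7.79%, 4.74% and 14.7%. Unthinned, Derl3 was found in 41.9%, 47.4%, 34.2% and 54.7%. The top 1% of cells held 7.12% to 10.6% of the Derl3 UMIs in each library and 5.78% to 7.19% of the Creld2 UMIs, so neither level rested on a handful of cells. The 10 genes summed to a median of 3.67, 4.00, 3.00 and 3.67 UMIs per 1000 in WT SCD, HH SCD, WT HFD and HH HFD.

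The upper tail of that sum depended on which genes entered it. Above the 90th percentile of WT SCD lay 9.16% of WT SCD cells, 12.1% of HH SCD, 3.64% of WT HFD (6.12% with the looser filter) and 10.8% of HH HFD cells. With Hspa5 and Hsp90b1 left out, the shares for the other 8 genes were 9.62%, 12.1%, 10.9% and 28.1%. The exact 95% binomial interval of the last was 26.4% to 29.8%, which covers only the sampling of cells within that library. HH HFD had no larger share of cells than HH SCD for the full sum and the largest of the 4 libraries for the 8 genes.

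**Figure D5:**
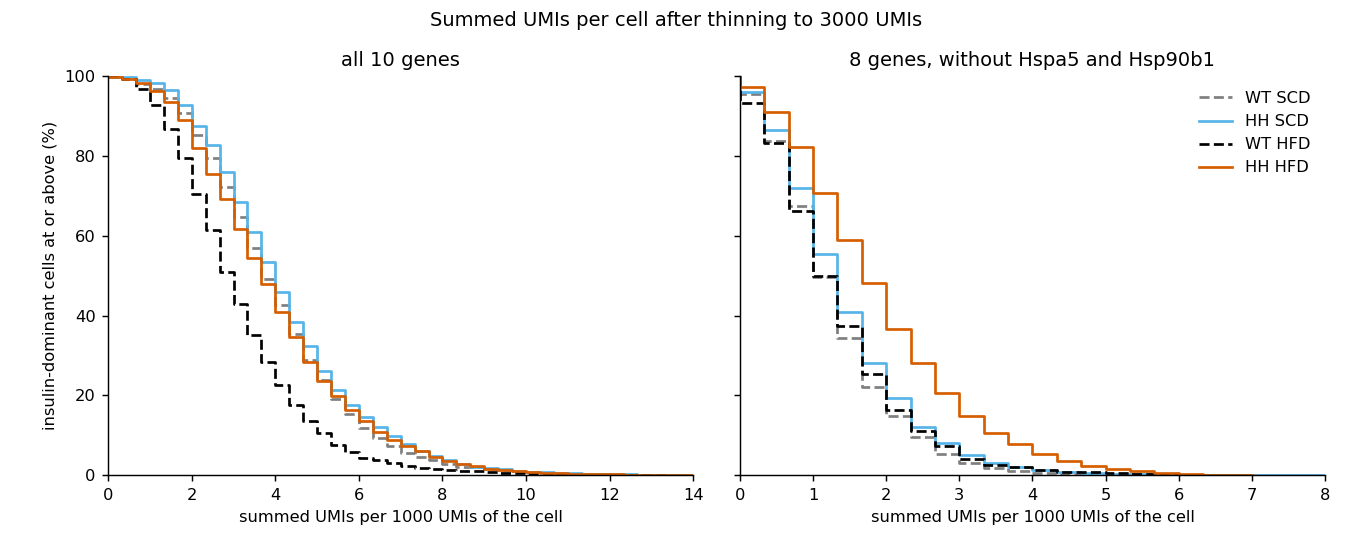
Share of insulin-dominant cells (percent) with at least a given summed count of the genes per 1000 UMIs, after thinning to 3000 UMIs, for the 10 genes and for the 8 genes without Hspa5 and Hsp90b1, with 1 line per library. Without Hspa5 and Hsp90b1 the HH HFD line runs above the other 3 up to 6.33 UMIs per 1000, where 0.287% of its cells are left, and not beyond.

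Insulin-dominant cells without detected Mafa were described separately. Mafa, a transcription factor of mature beta cells, read 395, 359, 312 and 194 CPM in insulin-dominant cells of the 4 libraries. Cells that lacked Mafa UMIs but had any UMI of Gc, Aldh1a3 or Serpina7 made up 4.00% of WT SCD, 4.36% of HH SCD, 7.38% of WT HFD and 22.3% of HH HFD insulin-dominant cells. In HH HFD, these 623 cells passed the threshold upward against the other 2167 in 3 of the 10 genes, and in none downward, where 1.31% of 5630 genes were higher and 4.35% lower (median over all genes −0.04). The 3 were Derl3 (69.4 against 52.2 CPM, log2 ratio 0.41), Fkbp11 (439 against 336 CPM, 0.39) and Creld2 (227 against 178 CPM, 0.35). Short of the threshold, Sdf2l1 stood at 0.25, Hyou1 at −0.16 (interval −0.23 to −0.09) and Hspa5 at −0.13 (interval −0.15 to −0.10). The median over the 10 genes was 0.12 there, and −0.02, 0.17 and 0.02 in WT SCD, HH SCD and WT HFD, where the rule took 79, 85 and 81 cells. In those libraries 1, 0 and 0 of the 10 genes passed the threshold upward and none downward, and shares of all genes were not counted. The HH SCD median was 0.040 with the looser filter and turned to −0.060 with predicted doublets kept. Their median depth in HH HFD was 26673 UMIs, against 23360 in the other cells, and its part in the result was not tested. Left out of both HFD libraries, a choice made after seeing the data, these cells took the median for HH over WT from 0.35 to 0.33 and the count past the threshold from 6 to 5, against 2.57% of 5904 genes higher and 10.3% lower. Derl3 then stood at 1.28, Creld2 at 1.04, Fkbp11 at 0.84 and Sdf2l1 at 0.63.

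Across the 16 sums of class and library, the genes outside the 10 most like their mean pattern included Uggt1, a folding sensor for glycoproteins (Pearson r 0.960), Car10 (0.959), Derl2 (0.955) and Atf5 (0.952), among 7298 genes. The points share libraries and depth, and the correlation within a class or without insulin-dominant cells was not read. Of the 9 of the 10 genes that averaged at least 10 CPM, all but Derl3, Sdf2l1 was closest to the mean (0.986), and Hspa5 (0.799), Fkbp11 (0.781), Pdia4 (0.685) and Hsp90b1 (0.563) were farthest.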

How the data were processed

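The authors made the deposited counts with Cell Ranger 6.0 on mm10 (per the submitters' processing notes), as integer UMI counts for each gene in each barcode, from 10x Genomics 3′ libraries of pooled islets. Nothing had been normalised. Barcodes were kept with under 10% mitochondrial UMIs, 3000 to 50000 UMIs and 2000 to 5000 genes, which left 1946 to 4135 cells per library after the cells scoring highest in Scrublet were removed at 0.8% per 1000 barcodes (its own threshold took too few). A class was given when the top hormone held 5% or more of UMIs and 2 times the next, with other-type markers under 0.5%. UMIs were summed by class and library. Ratios have exact conditional binomial intervals, levels exact Poisson intervals, all for counting error only. Ratios were counted past a log2 threshold of 0.322 among genes averaging at least 10 CPM. Classes were compared with edgeR 4.0.16 (TMM, quasi-likelihood, library block, Benjamini-Hochberg adjustment over 11635 genes) in R 4.3.3, with DESeq2 1.42.0 as an alternative. On simulated counts (insulin- against glucagon-dominant, 10173 genes) 60% of 1.5-fold and 100% of 2-fold changes were recovered, with 2.44% false calls. Python 3.11.15, numpy 2.4.6, scipy 1.17.1, pandas 2.3.3, scanpy 1.11.5 and matplotlib 3.10.9 were used. The library pairing of the classes comes from their shared library. Library totals were 68011082 to 104810105 UMIs.

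The 10 genes, the lists and the tests were chosen with earlier results of these data known. Genes named outside the 10 were markers of cell types, Pax4 and, by rule, the 2 highest and 2 lowest HH over WT ratios of each list in insulin-dominant cells on each diet, the 5 top genes of the Hspa5 ranking and the 5 genes most like the mean pattern, 1 of which is not reported here. Alternatives changed the cell filter, doublet removal, scaling, thinning, fold, expression minimum and class rule. A cell annotation by the authors was not used here, and protein sequences were not used here.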

Additional observations from a re-analysis of the deposited data

Results flagged for a closer look

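Several genes had ratios of opposite sign under the same contrast in the 2 diets or genotypes, with both counting intervals clear of 0. With 1 library per group these differences were not tested. In insulin-dominant cells, Hsp90b1 stood at −0.020 for HH over WT on chow and at 0.31 on high-fat diet (log2), although the chow value was positive under other scalings. For HFD over SCD in insulin-dominant cells, Hsp90b1 was at −0.26 in WT and 0.067 in HH, Dnajb11 at −0.11 and 0.18, Manf at −0.13 and 0.048 (the latter −0.000988 with thinning), and Derl3 at −0.39 and 0.77. Derl3 had the widest gap of these. In glucagon-dominant cells, Hspa5 was at 0.090 for HH over WT on chow and at −0.12 on high-fat diet, and for HFD over SCD at 0.12 in WT and −0.094 in HH. In somatostatin-dominant cells, Hspa5 was at 0.085 for HH over WT on chow and at −0.16 on high-fat diet, but at −0.020 on chow with cells thinned, so that the signs no longer differed.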

How the results depend on the processing

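Of the values that answer a comparison, 347 kept their direction and stayed within their counting interval or, for a count of genes, within 1.5 times the reported count, while 33 moved and 1 reversed. Of the values of single genes, 1059 kept theirs, 85 moved, 10 reversed, 7 lost their call and 3 gained one. For HH over WT on chow in insulin-dominant cells, the median of the 10 genes was 0.18 with totals free of hormone, Iapp and mitochondrial UMIs, 0.20 with median-of-ratios size factors and 0.085 at a minimum of 50 CPM, the count of higher genes was 2 with size factors and 0 at 1.5-fold, Hsp90b1 was 0.037, 0.065 and 0.015 with hormone-free totals, size factors and thinning, and Hyou1 −0.019 with thinning. On high-fat diet the median was 0.26 with the looser filter (Hspa5 −0.032), 0.49 with size factors and 0.45 with thinning. For HFD over SCD in WT the median was 0.10 with the looser filter and 0.11 at 50 CPM, the count lower was 1 with the looser filter, without gene bounds, at 1.5-fold and at 50 CPM, and the count higher was 2 with hormone-free totals and 0 at 1.5-fold. In HH the median was 0.25 at 50 CPM and Manf stood at −0.000988 with thinning. Thinning also gave 2 higher and 1 lower in glucagon-dominant cells on chow, 2 lower in somatostatin-dominant cells on chow (Hspa5 −0.020) and 3 lower there on high-fat diet, where the count higher was 0 with the looser filter, without gene bounds, with equal cell weights and with a dominance of 5 times. Without TMM, 1 gene was lower in insulin- than somatostatin-dominant cells (Hsp90b1 −0.16, Pdia4 −0.032), and between glucagon- and somatostatin-dominant cells 0 were higher and 3 lower (Hspa5 −0.055). The median for cells lacking Mafa UMIs after thinning in HH SCD was 0.040 with the looser filter and −0.060 with doublets kept. The share above the 90th percentile was 10.9% in WT HFD without Hspa5 and Hsp90b1 and 6.12% with the looser filter, and in HH HFD 12.5% at 8000 UMIs and 28.1% without those 2 genes. The cause was not tested. Leaving out each library in turn kept 10 of 10 genes higher in insulin-dominant cells in all 3 class comparisons, with 2 to 3 higher and 1 lower between glucagon- and somatostatin-dominant cells. Dropping the library block changed no call for insulin-dominant cells and ended that of Hspa5 between glucagon- and somatostatin-dominant cells. Within a diet or within a genotype, no paired analysis was possible because each group had 1 library, and a fit pairing the genotypes across the 2 diets was not run.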

Other observations

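Cells outside the hormone classes also carried these transcripts. In HH HFD, 23 cells with lymphocyte markers had Derl3 at 234 CPM, Creld2 at 374 CPM, Fkbp11 at 198 CPM and Hsp90b1 at 2142 CPM, with the immunoglobulin chain Ighm at 27240 CPM, Jchain at 4111 CPM and Mzb1 at 2476 CPM. In WT HFD, 46 such cells had Derl3 at 14.9 CPM and Hsp90b1 at 271 CPM, with the T cell gene Cd3d at 780 CPM. Stromal-marker cells had Hspa5 at 1170, 1389, 1425 and 1860 CPM and Creld2 at 66.0, 35.3, 114 and 170 CPM in WT SCD, HH SCD, WT HFD and HH HFD, from 14 to 90 cells. Macrophage-marker cells had Sdf2l1 at 101, 149, 210 and 428 CPM in the same order, from 13 to 87 cells. With 1 library per group and few cells, these are values only.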
